A study of Mus musculus with 11 samples.

Results

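A set of 10 genes that protect cells from ferroptosis, supply its lipid substrate or make glutathione was read in mouse testis RNA. The genes were chosen by name for these roles, with earlier results of these data known, and all 10 are among the 24411 genes of the count table. By role they are the lipid peroxide defence genes Gpx4 and Aifm2, the cystine importer genes Slc7a11 and Slc3a2, the glutathione synthesis genes Gclc, Gclm and Gss, the phospholipid genes Acsl4 and Lpcat3, and the transcription factor gene Nfe2l2. The groups were 4 WT testes, 4 Irp1-/- testes and 3 Irp2-/- testes, all from mice aged 20 weeks that received no treatment. The Irp1-/- mice carry a knockout of Aco1 in every cell (allele Aco1 tm1Roua, on a C57Bl/6J background), so that germ cells, somatic cells of the testis and all other organs lack the protein. The WT mice of the study were littermates from crosses of Irp1 heterozygotes. The Irp2-/- mice are labelled as a global knockout of Ireb2, and the allele of that line is not given in the sources used here. No WT littermates of that line are described, so line and genotype cannot be told apart in comparisons with Irp2-/- testes. Each library was made from polyadenylated RNA of a whole testis without its capsule. The column names also hold a letter, R for Irp1-/- 6 and L for every other library, whose meaning is not stated. In RNA from whole tissue, fewer cells of a type and less RNA per cell cannot be told apart. Nothing in the labels says that the libraries of a group came from separate animals, so p-values measure the spread between these libraries.

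Ferroptosis is a form of cell death that depends on iron and on the peroxidation of polyunsaturated phospholipids in membranes. GPX4, a selenoprotein, reduces phospholipid hydroperoxides to alcohols with glutathione as the electron donor, and AIFM2 (also called FSP1) guards membranes by a separate route that regenerates reduced ubiquinone. Glutathione is built from cysteine, which cells take up as cystine through the exchanger formed by SLC7A11 and SLC3A2. In sperm, GPX4 protein is also a structural component of the mitochondrial capsule of the midpiece, and the testis is known for very high Gpx4 expression in spermatids. IRP1 and IRP2, the products of Aco1 and Ireb2, control iron uptake and storage by binding iron-responsive elements in mRNAs. The deposited study was designed to find changes of expression linked to spermatogenesis in testes that lack Irp1.

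Positions are those of GRCm38 (mm10). Gpx4 is at chr10:80047166-80056439 on the plus strand, and Slc7a11 is at chr3:50364936-50499087 on the minus strand. NRF2, the product of Nfe2l2, binds antioxidant response elements, and amino acid response elements are bound by ATF4 when amino acids are scarce. RefSeq promoters (GRCm38.p6, 250 bases before to 50 after a start) were listed for 9 of the 10 members, 12 promoters in all, and were searched on both strands for the core TGACNNNGC of the first element and for TGATGCAA of the second. The core of the antioxidant response element was found in 2 of the 12 promoters, those of Gclm and Nfe2l2, and in 12.4% of the 32851 mouse promoters in the table. The amino acid response element was found in the Slc7a11 promoter alone, at 2 sites in opposite orientation, and in 0.895% of all promoters. The 1 promoter listed for Slc7a11 lies inside the gene span given above, so the upstream end of that span was not searched. No match of one motif overlapped a match of the other. These are the stretches that hold the matches, 5′ to 3′ on the gene's strand with the matched letters in capitals, shown because they are the matches found in the members' promoters.
Slc7a11, chr3:50443643-50443689, minus strand: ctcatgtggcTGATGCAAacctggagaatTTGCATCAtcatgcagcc
Gclm, chr3:122245413-122245441, plus strand: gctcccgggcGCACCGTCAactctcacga
Nfe2l2, chr2:75704885-75704913, minus strand: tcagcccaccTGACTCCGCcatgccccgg
A match of letters is a description of the window and not a shown binding site.

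Total counts per library lay between 15902473 and 22451417, with medians of 17670390 in WT, 19428625 in Irp1-/- and 19659548 in Irp2-/- testes. All 15 pairs of libraries within a genotype were further apart than sampling noise gives (chi-square per degree of freedom 1.97 to 6.75), so none was treated as a copy. Levels are given in CPM, a gene's counts relative to its library's total after TMM scaling over the 11 libraries, in the order WT 1, 2, 3, 4, Irp1-/- 1, 2, 6, 7 and Irp2-/- 1, 2, 3. The targeted genes were lower in their own knockouts. Aco1 averaged 8.58 ± 0.622 CPM in the Irp1-/- group and 11.8 ± 1.36 CPM in the WT group (SD, n = 4 each). Its log2 fold change was -0.45 with an adjusted p of 0.0158 (edgeR), which lay between 0.052 and 0.075 without Irp1-/- 6, WT 2, WT 3 or WT 4. Ireb2 averaged 62.2 ± 0.514 CPM in the 3 Irp2-/- libraries and 139.6 ± 5.84 CPM in the 4 WT libraries (mean ± SD, log2 fold change -1.16, edgeR adjusted p = 2.8e-13). The defining markers of the testis were present, since the 8 markers of elongating spermatids summed to between 22373.3 and 27881.1 CPM, and none of the germ cell, Sertoli cell or Leydig cell markers was at 0 in every library of a group.

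In WT testes the members spanned a wide range, with Gpx4 far above the rest and Gss and Slc7a11 at the bottom. Levels were compared between genes as CPM per kb of exon, with exon lengths from the GENCODE annotation of the same build. The length of a gene was the union of all its annotated exons, which can exceed that of its transcripts. Gpx4 reached 681.6 ± 18.5 CPM per kb (SD, n = 4), which was 11.9 times the level of Lpcat3, the next member, and by plain CPM it stood above 99.8% of all genes in the table. Lpcat3, which inserts polyunsaturated fatty acids into phospholipids, had 57.1 ± 1.07 CPM per kb, Slc3a2, the heavy chain of the cystine exchanger, 28.6 ± 2.94, and Gclc, the catalytic subunit of glutamate-cysteine ligase, 9.31 ± 0.651 (SD, n = 4 each). Each of these was separated from its neighbours in the order in all 4 WT libraries.

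A middle group followed in which neighbours did not differ beyond their spread. Aifm2 stood at 5.50 ± 0.196 CPM per kb, Nfe2l2 at 5.38 ± 0.701, Gclm, the modifier subunit of the ligase, at 4.93 ± 0.145, and Acsl4, which activates polyunsaturated fatty acids for membrane lipids, at 4.36 ± 0.631 (SD, n = 4 each). Libraries of Aifm2 and Nfe2l2, of Nfe2l2 and Gclm, and of Gclm and Acsl4 overlapped. Gss, which completes glutathione by adding glycine, was 5.77 times below Acsl4 at 0.755 ± 0.103 CPM per kb, and Slc7a11, the light chain that carries cystine, was lowest at 0.441 ± 0.110 CPM per kb (SD, n = 4 each). The order of Gss and Slc7a11 depends on the exon length used, since by plain CPM Gss was lowest, with a mean of 4.46 against 6.13 for Slc7a11. These last values rest on few reads, 68 to 85 counts of Gss and 74 to 132 counts of Slc7a11 per WT library.

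**Figure D1:**
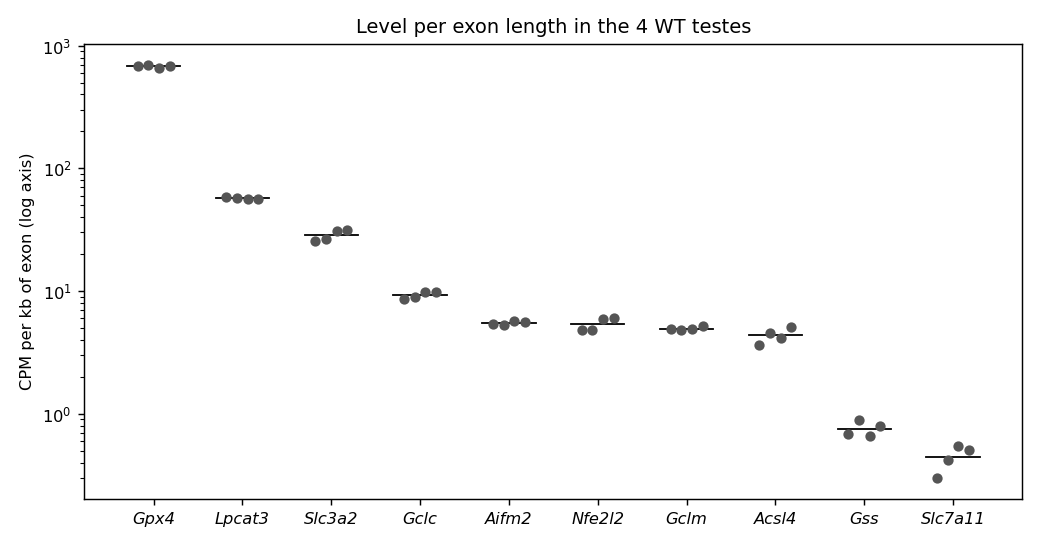
Level of each of the 10 genes in the 4 WT testes, in CPM per kb of exon on a log axis; points are libraries and the line is their mean. Gpx4 at 681.6 stands 11.9 times above Lpcat3, and Gss at 0.755 and Slc7a11 at 0.441 lie below all other genes of the list.

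None of the 10 members differed between genotypes at an adjusted p under 0.05 in any of the 3 comparisons, and for every member the libraries of the groups overlapped. In Irp1-/- against WT testes, 0 of 10 members passed edgeR's test and 0 of 10 in DESeq2, beside 1.02% of the 16002 genes tested. At an unadjusted p under 0.05 the count was 1 of 10, that of Slc3a2, beside 12.1% of all genes. The groups did not overlap for 0 of 10 members, beside 6.63% of all genes. The members' log2 fold changes had a median of 0.019, from -0.066 to 0.12, against -0.00079 over all genes, and 6 of 10 lay above 0, beside 49.7% of all genes. All 10 members passed the filter on low counts in every comparison.

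Irp2-/- against WT testes likewise gave 0 of 10 members past the threshold in edgeR and 0 of 10 in DESeq2, beside 1.21% of 16154 genes. The count at an unadjusted p under 0.05 was 0 of 10, beside 9.42% of all genes, and 0 of 10 members had groups without overlap, beside 9.23%. The median log2 fold change was 0.029, from -0.051 to 0.18, against 0.0033 over all genes, with 7 of 10 above 0, beside 51.3%. Both comparisons share the WT libraries. Between the knockouts, Irp1-/- against Irp2-/-, 0 of 10 members passed in edgeR and 0 of 10 in DESeq2, beside 4.69% of 16281 genes. The count at an unadjusted p under 0.05 was 1 of 10, that of Aifm2, beside 16.3%, and 0 of 10 had groups without overlap, beside 15.2%. There the median log2 fold change was -0.029, from -0.21 to 0.15, against -0.0019 over all genes, with 3 of 10 above 0, beside 49.4%.

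**Figure D2:**
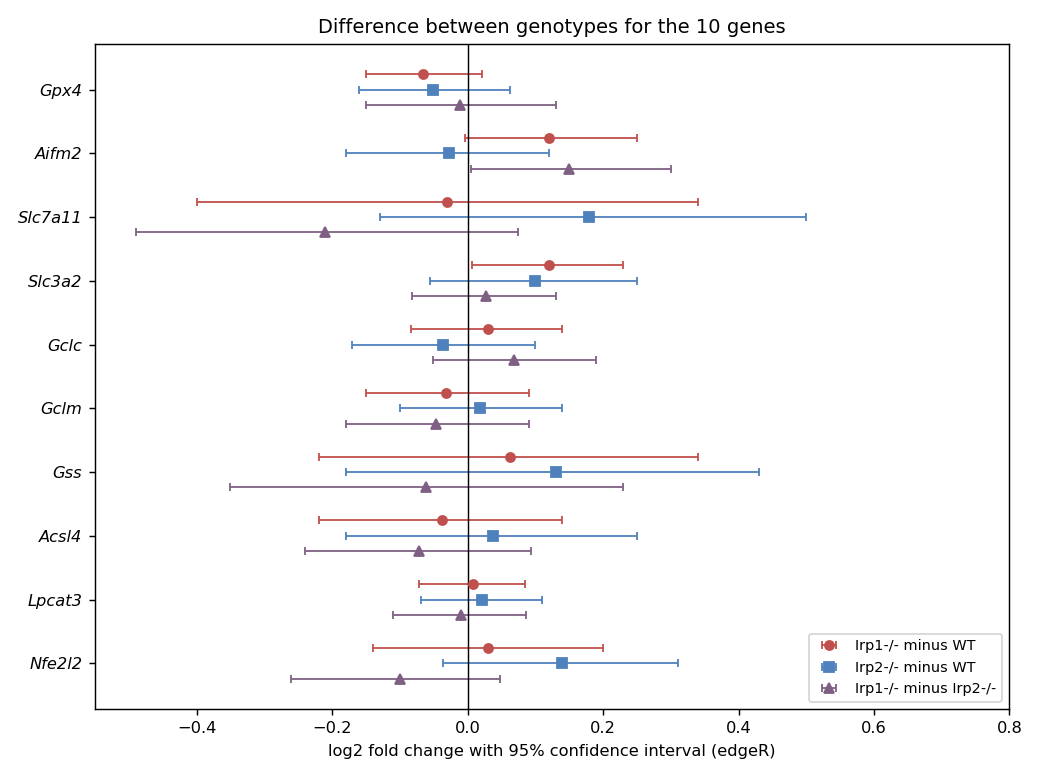
Log2 fold change of each gene with its 95% confidence interval from edgeR in the 3 comparisons; the vertical line marks no difference. In each comparison the interval of Lpcat3 is the shortest and those of Slc7a11 and Gss are the longest, and the intervals that leave out 0 are those of Slc3a2 in Irp1-/- against WT and of Aifm2 in Irp1-/- against Irp2-/-.

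Gpx4, the enzyme at the centre of ferroptosis defence, had an SD of 2.72% of the mean in WT, 7.04% in Irp1-/- and 10.5% in Irp2-/- testes. It stood at 1181.3, 1206.0, 1130.4 and 1182.9 CPM in WT, at 1074.8, 1121.2, 1060.3 and 1234.7 CPM in Irp1-/-, and at 1260.2, 1113.4 and 1023.7 CPM in Irp2-/- testes. Irp1-/- 1, 2 and 6 lay below every WT library and Irp1-/- 7 above all of them, while Irp2-/- held both the highest and the lowest value of the 11. Irp1-/- against WT testes gave a log2 fold change of -0.066 (SE 0.042), with an adjusted p of 0.574 (edgeR) and a 95% interval from -10.0% to 1.44%. In Irp2-/- against WT testes it was -0.051 (SE 0.055, edgeR adjusted p = 0.881, interval from -10.8% to 4.42%). RefSeq lists 4 starts of Gpx4, and gene counts add the transcripts of its cytosolic, mitochondrial and nuclear forms together.

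Aifm2 was the member that came nearest to a difference between the knockouts. Its level was 22.2, 21.9, 23.7 and 22.9 CPM in WT, 25.4, 25.6, 23.1 and 24.6 CPM in Irp1-/-, and 21, 24.3 and 21.4 CPM in Irp2-/- testes. Irp1-/- 6 lay within the WT range and the other Irp1-/- libraries above it. Its log2 fold change was 0.12 (SE 0.062) in Irp1-/- against WT testes, adjusted p = 0.428 (edgeR), and 0.15 (SE 0.072) in Irp1-/- against Irp2-/- testes, unadjusted p = 0.0433 and adjusted p = 0.285 (edgeR). In Irp2-/- against WT testes it was -0.028 (SE 0.072, edgeR adjusted p = 0.96). An exon of Aifm2 is overlapped by H2afy2 on the opposite strand, and the strand setting of the counting is not stated.

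**Figure D3:**
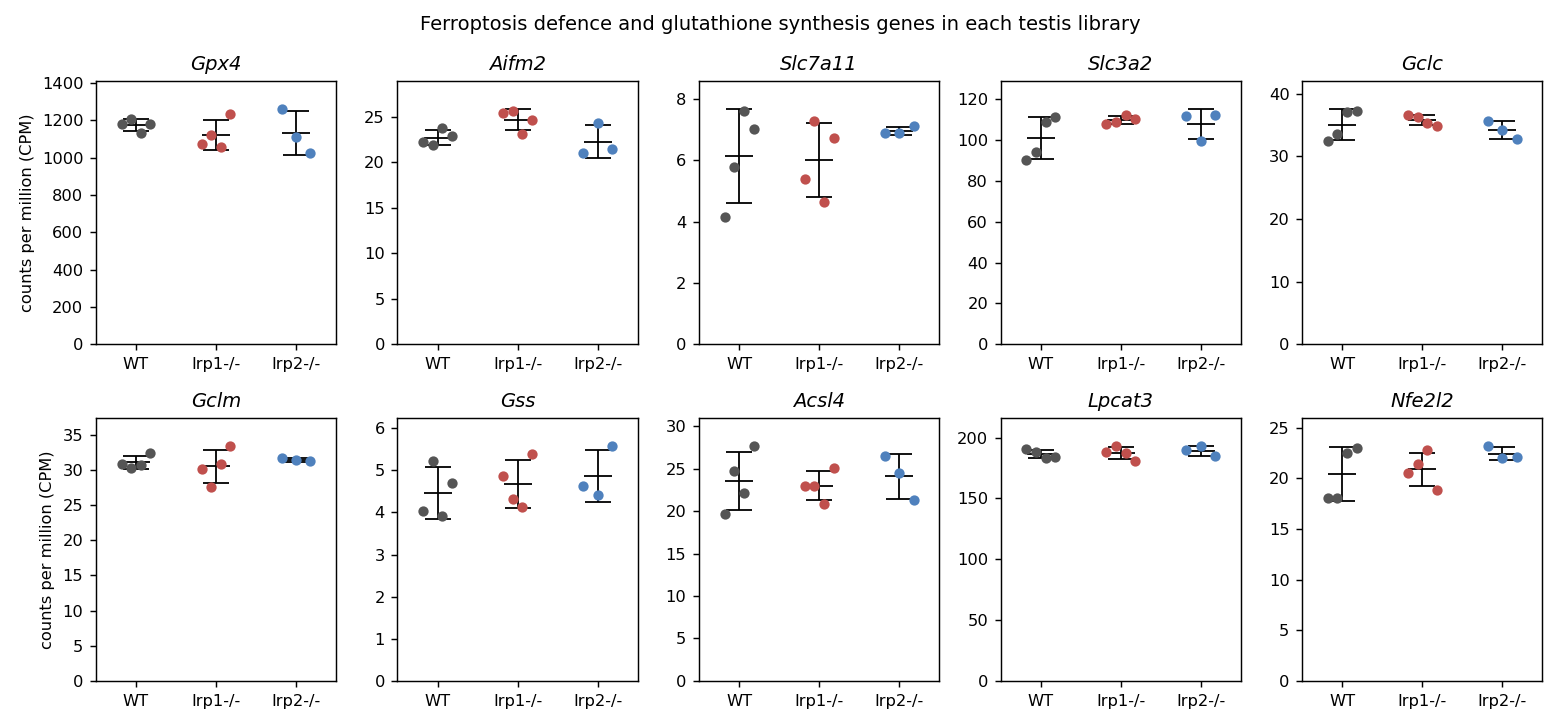
CPM of each gene in each of the 11 libraries, on axes that start at 0; points are libraries, and the bar and whiskers give the mean and SD of the 4 WT, 4 Irp1-/- and 3 Irp2-/- testes. In each panel the 3 groups overlap, Lpcat3 varies least within WT (SD 1.88% of the mean) and Slc7a11 most (24.9%).

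Cystine import rests on 2 chains. Slc7a11, the chain specific to cystine and a known target of both NRF2 and ATF4, had the widest scatter of the list. It was 4.14, 5.78, 7.59 and 7.02 CPM in WT, 5.39, 7.28, 4.64 and 6.72 CPM in Irp1-/-, and 6.90, 6.87 and 7.10 CPM in Irp2-/- testes. The WT and Irp1-/- libraries ran over nearly the same range, while those of Irp2-/- sat together inside it. The SD was 24.9% of the mean in WT, where counting alone gives 9.69%, and 1.80% in Irp2-/-, where counting alone gives 8.41%, so that the Irp2-/- libraries lay closer together than counting error gives on average. The log2 fold change was -0.03 (SE 0.18, edgeR adjusted p = 0.971) in Irp1-/- against WT testes with an interval from -24.5% to 27.0%, and 0.18 (SE 0.15, edgeR adjusted p = 0.815) in Irp2-/- against WT testes with an interval from -8.92% to 41.5%. Between the knockouts it was -0.21 (SE 0.14, edgeR adjusted p = 0.5). Changes of Slc7a11 within those intervals remain possible at this depth and spread. The intervals are not limits of detection, since a change beyond them could also miss the adjusted threshold.

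Slc3a2, the heavy chain that Slc7a11 shares with several other amino acid transporters, was the only member with an unadjusted p under 0.05 in Irp1-/- against WT testes. It stood at 90.2, 94.2, 108.6 and 111.1 CPM in WT, at 108.0, 108.6, 112.1 and 110.4 CPM in Irp1-/-, and at 111.6, 99.5 and 112.4 CPM in Irp2-/- testes. WT 1 and WT 2 were the lowest of the 11, and WT 3 and WT 4 lay within the Irp1-/- range. The log2 fold change was 0.12 (SE 0.054, interval from 0.498% to 17.4%), unadjusted p = 0.0381 and adjusted p = 0.369 (edgeR). Without WT 1 it was 0.07 (edgeR adjusted p = 0.641) and without WT 4 it was 0.17 (edgeR adjusted p = 0.161). In Irp2-/- against WT testes it was 0.10 (SE 0.071, edgeR adjusted p = 0.783).

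WT 1 and WT 2 lay below both other WT libraries for 5 of the 10 members, Aifm2, Slc7a11, Slc3a2, Gclc and Nfe2l2, beside 22.9% of the 16002 genes tested in Irp1-/- against WT testes. The order was noticed after the values were seen and was not tested. The summed CPM of the 8 Leydig cell markers, which mark the steroid-producing cells between the tubules, was 793.8, 761.4, 1100.1 and 1031.2 in the WT libraries, so that the same libraries were low. It was 1154.3, 1221.4, 1025.6 and 1037.8 CPM in Irp1-/-, and 948.9, 791.8 and 1034.8 CPM in Irp2-/- testes. The 10 Sertoli cell markers summed to 991.7, 994.8, 1059.0 and 1076.3 CPM in WT, to 1105.9 CPM or more in every Irp1-/- library (highest 1242.2), and from 991.5 to 1136.0 CPM in Irp2-/- testes. Every Irp1-/- library thus lay above every WT library in that sum, most of which was Clu, a secreted glycoprotein, with means of 932.4 CPM in Irp1-/- and 831.7 CPM in WT testes. Each of the other 9 markers overlapped between Irp1-/- and WT testes, and without Clu the sums overlapped too, at 205.9 to 229.4 CPM in Irp1-/- and 189.1 to 208.2 CPM in WT testes. Germ cell sums also separated, in the other direction. Spermatocyte markers summed to 1396.8 to 1440.7 CPM in Irp1-/- and 1464.0 to 1515.5 CPM in WT testes. Spermatogonia markers, mostly Ddx4, summed to 702.2 to 710.9 CPM in Irp1-/- and 722.7 to 729.9 CPM in WT testes. Ddx4 averaged 599.4 CPM in Irp1-/- and 617.3 CPM in WT testes, and each other spermatogonia marker overlapped between the groups. The sums of round and of elongating spermatid markers overlapped. The part of cell composition in the levels of the members was not tested.

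Gclc and Gclm, whose products join to form the ligase that sets the pace of glutathione synthesis, did not differ between genotypes past the threshold in edgeR. Gclc was 32.4, 33.6, 37.1 and 37.2 CPM in WT, 36.6, 36.3, 35.4 and 34.8 CPM in Irp1-/-, and 35.6, 34.2 and 32.7 CPM in Irp2-/- testes. All Irp1-/- libraries fell between the lower and the upper WT libraries. The log2 fold change of Gclc was 0.03 (SE 0.055, edgeR adjusted p = 0.887) in Irp1-/- and -0.036 (SE 0.064, edgeR adjusted p = 0.945) in Irp2-/- against WT testes. Gclm was 30.8, 30.3, 30.7 and 32.4 CPM in WT, 30.1, 27.6, 30.9 and 33.4 CPM in Irp1-/-, and 31.7, 31.4 and 31.2 CPM in Irp2-/- testes. The lowest and the highest Gclm value were both from Irp1-/- libraries. Its log2 fold change was -0.032 (SE 0.059, edgeR adjusted p = 0.89) in Irp1-/- and 0.019 (SE 0.059, edgeR adjusted p = 0.966) in Irp2-/- against WT testes. For Gclc and Gclm in Irp1-/- against WT testes, the intervals were -5.59% to 10.4% and -10.1% to 6.42%.

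Gss stood at 4.03, 5.22, 3.91 and 4.70 CPM in WT, at 4.86, 4.32, 4.14 and 5.40 CPM in Irp1-/-, and at 4.63, 4.41 and 5.58 CPM in Irp2-/- testes. The groups overlapped over most of their ranges. For Gss the log2 fold change was 0.063 (SE 0.14, edgeR adjusted p = 0.908) in Irp1-/- and 0.13 (SE 0.15, edgeR adjusted p = 0.895) in Irp2-/- against WT testes, and the first interval ran from -14.0% to 26.8%. Acss2 overlaps an exon of Gss on the opposite strand, so reads of the 2 genes cannot be told apart without strand.

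The subunit ratios were read within each library, where library size cancels. The log2 ratio of Gclm to Gclc counts was -0.07, -0.15, -0.27 and -0.20 in WT, -0.28, -0.40, -0.20 and -0.06 in Irp1-/-, and -0.17, -0.12 and -0.07 in Irp2-/- testes. Each library held somewhat fewer Gclm than Gclc reads, from 75.9% in Irp1-/- 2 to 95.8% in Irp1-/- 7. The means differed by -0.061 in Irp1-/- and by 0.054 in Irp2-/- against WT testes. The exact permutation test, two-sided, gave p = 0.543 and 0.4 (adjusted p = 0.651 for both). The log2 ratio of Slc7a11 to Slc3a2 counts averaged -4.07 ± 0.258 in WT (SD, n = 4), -4.21 ± 0.309 in Irp1-/- (SD, n = 4) and -3.95 ± 0.085 in Irp2-/- testes (SD, n = 3). Slc7a11 reads came to between 4.1% of Slc3a2 reads in Irp1-/- 6 and 7.0% in WT 3. The differences were -0.14 in Irp1-/- and 0.12 in Irp2-/- against WT testes (exact permutation p = 0.514 and 0.686, adjusted p = 0.651 and 0.686). The smallest p that 4 libraries against 4 allow is 0.0286, which becomes 0.171 over the 6 ratio comparisons, so that no ratio differing alone could have passed the threshold.

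**Figure D4:**
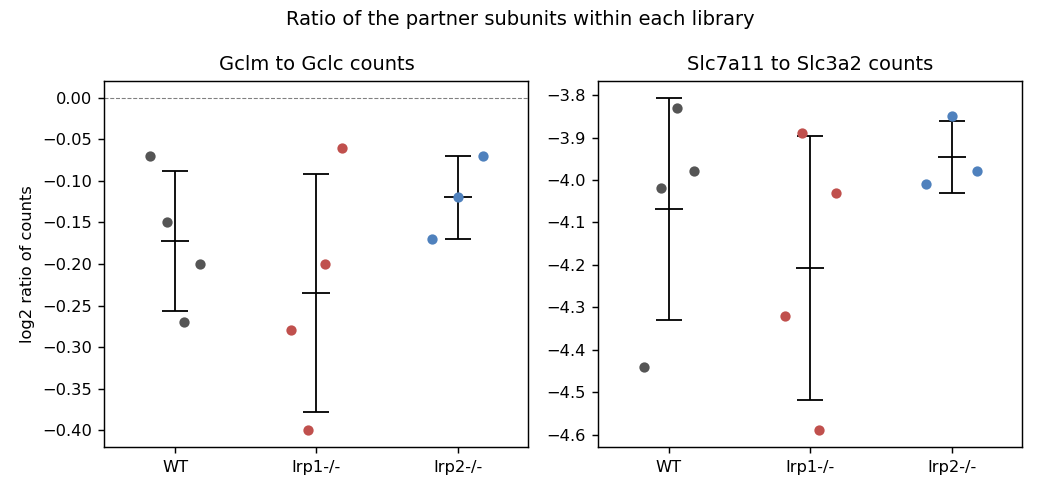
Log2 ratio of counts of the partner subunits in each library, Gclm to Gclc on the left and Slc7a11 to Slc3a2 on the right, with the mean and SD per genotype; the axes do not start at 0, and the dashed line marks equal counts. Gclm to Gclc lies between -0.40 and -0.06 and Slc7a11 to Slc3a2 between -4.59 and -3.83, and the genotypes overlap in both.

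Acsl4 and Lpcat3 place polyunsaturated fatty acids into membrane phospholipids, the substrate of ferroptotic peroxidation. Acsl4 was 19.7, 24.7, 22.2 and 27.7 CPM in WT, 23, 23, 20.9 and 25.1 CPM in Irp1-/-, and 26.5, 24.5 and 21.3 CPM in Irp2-/- testes. Every Irp1-/- and Irp2-/- library lay inside the WT range. For Acsl4 the log2 fold change was -0.038 (SE 0.085, edgeR adjusted p = 0.91) in Irp1-/- and 0.037 (SE 0.10, edgeR adjusted p = 0.963) in Irp2-/- against WT testes.

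Lpcat3 was the steadiest member. It was 190.8, 188.0, 183.6 and 183.7 CPM in WT, 188.5, 193.1, 187.4 and 180.7 CPM in Irp1-/-, and 189.4, 192.9 and 184.5 CPM in Irp2-/- testes, a range of 180.7 to 193.1 CPM over all libraries. Its log2 fold change was 0.0074 (SE 0.038, edgeR adjusted p = 0.966) in Irp1-/- against WT testes with an interval from -4.78% to 6.11%, and 0.021 (SE 0.044, edgeR adjusted p = 0.954) in Irp2-/- against WT testes with an interval from -4.69% to 8.02%. Emg1 overlaps an exon of Lpcat3 on the opposite strand.

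Nfe2l2 was 18.1, 18.1, 22.5 and 23 CPM in WT, 20.5, 21.4, 22.8 and 18.8 CPM in Irp1-/-, and 23.2, 22 and 22.1 CPM in Irp2-/- testes. The WT libraries fell into a lower and an upper pair, and all Irp1-/- libraries lay within the WT range. The log2 fold change was 0.03 (SE 0.081, edgeR adjusted p = 0.929) in Irp1-/- and 0.14 (SE 0.085, edgeR adjusted p = 0.696) in Irp2-/- against WT testes, and -0.10 (SE 0.074, edgeR adjusted p = 0.539) between the knockouts. NRF2 is known to be controlled mainly by the stability of its protein, which these libraries do not show.

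The genes around the members were read as 4 lists: 23 other ferroptosis genes, 33 genes of glutathione use and turnover, 20 partners, repressors and targets of NRF2, and 10 genes of selenoprotein synthesis. In Irp1-/- against WT testes 1 gene passed, Gpx1 of the glutathione list (1 of 29, higher in Irp1-/-), beside 0.581% of all genes called higher. The ferroptosis, NRF2 and selenoprotein lists had 0 of 21, 0 of 20 and 0 of 10 in edgeR. At an unadjusted p under 0.05 stood 4 of 21 ferroptosis genes, 9 of 29 glutathione genes, 5 of 20 NRF2 genes and 0 of 10 selenoprotein genes, beside 12.1% of all genes. The median log2 fold changes were 0.022 for the ferroptosis list, 0.036 for the glutathione list, 0.045 for the NRF2 list and 0.006 for the selenoprotein list. In Irp2-/- against WT testes no list had a gene past the threshold in edgeR, beside 1.21% of all genes, and 2, 3, 0 and 0 genes of the lists had an unadjusted p under 0.05, beside 9.42%.

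Gpx1 encodes the cytosolic glutathione peroxidase, which reduces hydrogen peroxide. It was 11.5, 11.6, 15.4 and 14.4 CPM in WT, 16.7, 15.9, 17.4 and 21.2 CPM in Irp1-/-, and 17.4, 12.8 and 14.0 CPM in Irp2-/- testes. All Irp1-/- libraries lay above all WT libraries. For Gpx1 the log2 fold change was 0.42 (SE 0.10) with an adjusted p of 0.0473 (edgeR). That call was close to the threshold, and the adjusted p lay between 0.0644 and 0.163 without Irp1-/- 1, 6 or 7 or without WT 1, 2 or 4, and was 0.109 in a fit of all 11 libraries. The sum of the Sertoli cell markers also lay higher in every Irp1-/- than in every WT library, though not without Clu, the 1 of the 10 markers past the threshold (log2 fold change 0.16, edgeR adjusted p = 0.0473), and its part in the Gpx1 result was not tested.

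Between the knockouts, 7 genes of the lists passed, all higher in Irp1-/- than in Irp2-/- testes, beside 2.92% of all genes called higher. They were 2 of 21 ferroptosis genes, 2 of 29 glutathione genes, 2 of 20 NRF2 genes and 1 of 10 selenoprotein genes. The medians of the lists were 0.062, 0.028, 0.019 and -0.021 on the log2 scale. Gpx3, the secreted plasma glutathione peroxidase, had the largest difference among the 7 genes, 7.22, 5.49, 5.64 and 5.97 CPM in Irp1-/- against 2.89, 3.64 and 2.47 CPM in Irp2-/- testes (log2 fold change 1.02, SE 0.15, edgeR adjusted p = 0.00024). The WT libraries, at 3.81, 4.78, 5.35 and 4.65 CPM, lay between those groups without touching either. Against WT, Gpx3 had a log2 fold change of 0.39 in Irp1-/- (edgeR adjusted p = 0.177) and of -0.63 in Irp2-/- testes (edgeR adjusted p = 0.0665).

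Fth1, the heavy chain of ferritin and a target of both iron regulatory proteins, showed the same order at a smaller scale. It was 155.7, 156.9, 151.0 and 166.1 CPM in Irp1-/-, 145.4, 143.6, 147.8 and 150.9 CPM in WT, and 142.3, 123.8 and 127.2 CPM in Irp2-/- testes, and no group overlapped another. The log2 fold change between the knockouts was 0.26 (SE 0.054, edgeR adjusted p = 0.00499), and the adjusted p was 0.0676 without Irp2-/- 2. Against WT it was 0.10 in Irp1-/- (edgeR adjusted p = 0.289) and -0.16 in Irp2-/- testes (edgeR adjusted p = 0.168). Processed copies of Fth1 are known, and how reads shared with them were counted was not examined.

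Of the other glutathione peroxidases, Gpx6 was 13.0, 12.5, 14.4 and 11.9 CPM in Irp1-/- and 10.7, 8.87 and 9.63 CPM in Irp2-/- testes (log2 fold change 0.41, SE 0.098, edgeR adjusted p = 0.015). The adjusted p was between 0.0503 and 0.121 without Irp1-/- 1, Irp1-/- 6 or Irp2-/- 2. Selenop, the plasma carrier of selenium from which selenoproteins such as GPX4 are supplied, was 83.9, 81, 81.6 and 77.0 CPM in Irp1-/- and 69.7, 64.6 and 75.4 CPM in Irp2-/- testes (log2 fold change 0.21, SE 0.057, edgeR adjusted p = 0.0318). The adjusted p was between 0.0524 and 0.231 without Irp1-/- 1, 2 or 6 or without Irp2-/- 1 or 2, and 0.409 in a fit of all 11 libraries. For Gpx6 the WT libraries ran from 10.6 to 11.2 CPM, below every Irp1-/- library and overlapping Irp2-/-, and for Selenop they ran from 60.6 to 85.1 CPM, across both knockouts.

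Scd1, the desaturase that makes the monounsaturated fatty acids which compete with polyunsaturated ones, was 18.3, 19.2, 15.1 and 16.7 CPM in Irp1-/- and 12.8, 10.7 and 14.2 CPM in Irp2-/- testes (log2 fold change 0.47, SE 0.10, edgeR adjusted p = 0.00784). Its adjusted p was 0.0825 without Irp2-/- 2 and 0.105 in a fit of all 11 libraries. Of the NRF2 list, Ephx1, a microsomal epoxide hydrolase, was 75.9, 78.9, 65.3 and 73.2 CPM in Irp1-/- and 55.0, 46.8 and 56.8 CPM in Irp2-/- testes (log2 fold change 0.47, SE 0.072, edgeR adjusted p = 0.00045). Tkt, a transketolase of the pentose phosphate pathway, was 22.3, 25.3, 23 and 22.4 CPM in Irp1-/- and 18.3, 18.5 and 18.5 CPM in Irp2-/- testes (log2 fold change 0.34, SE 0.072, edgeR adjusted p = 0.00593). The adjusted p in a fit of all 11 libraries was 0.227 for Ephx1 and 0.051 for Tkt, and the WT libraries of these genes ran from 39.5 to 66.4 CPM for Ephx1, from 15.3 to 23.3 CPM for Tkt and from 9.18 to 15.9 CPM for Scd1, with WT 1 and WT 2 the lowest for each. In the comparison of the knockouts 3 of 8 Leydig cell markers and 4 of 10 Sertoli cell markers also passed, all higher in Irp1-/- testes, beside 2.92% of all genes called higher. Higher too were 1 of 8 round spermatid markers and 1 of 6 peritubular myoid cell markers, and 1 of 8 spermatogonia markers passed as lower. The part of these cells in the differences of the 7 genes was not tested.

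**Figure D5:**
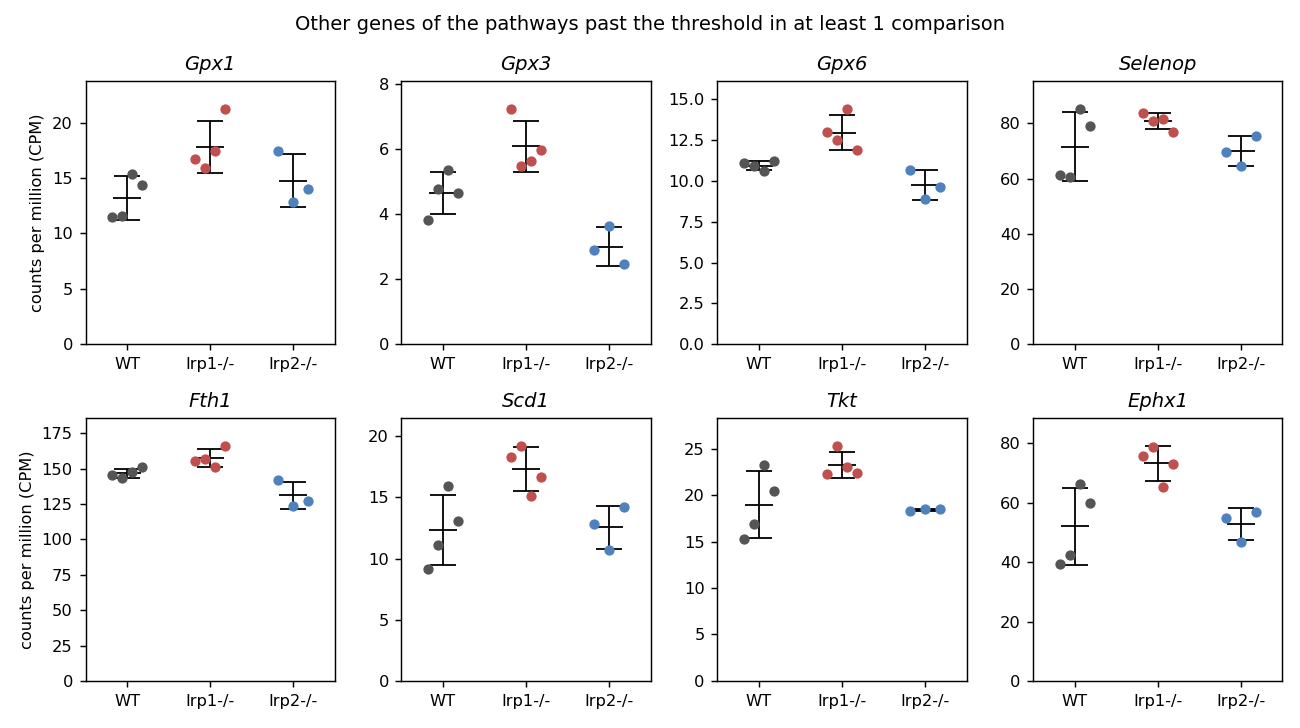
CPM of the 8 list genes that passed the threshold in at least 1 comparison, in each library, with the mean and SD per genotype; axes start at 0. Gpx1 passed in Irp1-/- against WT testes and the other 7 genes in Irp1-/- against Irp2-/- testes, and for Gpx3 and Fth1 the 3 genotypes do not overlap, with WT in the middle.

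Other list genes had an unadjusted p under 0.05 and did not pass after adjustment. Between the knockouts, Alox12, an arachidonate lipoxygenase, had a log2 fold change of 0.44 (edgeR adjusted p = 0.0515), Ggt5, a gamma-glutamyl transferase, 0.82 (edgeR adjusted p = 0.103), and Chac2, which degrades glutathione, -0.54 (edgeR adjusted p = 0.0984). Nqo1, a classic NRF2 target, had 0.49 (edgeR adjusted p = 0.296) and Scly, a selenocysteine lyase, 0.21 (edgeR adjusted p = 0.22). The NRF2 list had 6 genes at an unadjusted p under 0.05 there, in both directions. Srxn1 at -0.18 (edgeR adjusted p = 0.115) and Osgin1 at -0.13 (edgeR adjusted p = 0.161) were lower in Irp1-/- testes. Keap1 at 0.15 (edgeR adjusted p = 0.123) was higher, as were Nqo1, Ephx1 and Tkt. In Irp1-/- against WT testes, Mboat2, which remodels phospholipids with monounsaturated fatty acids, had 0.23 (edgeR adjusted p = 0.217), Gpx7 0.78 (edgeR adjusted p = 0.349) at under 1 CPM, and Sqstm1, an adaptor that binds the NRF2 repressor KEAP1, 0.10 (edgeR adjusted p = 0.325). Alox12 had 0.36 (edgeR adjusted p = 0.175) and Ggt5 0.63 (edgeR adjusted p = 0.343) there. Lower in Irp1-/- testes were Glrx2 at -0.18 (edgeR adjusted p = 0.0932) and Chac2 at -0.39 (edgeR adjusted p = 0.355), both without overlap of the groups. Oplah at -0.095 (edgeR adjusted p = 0.402) and Osgin1 at -0.081 (edgeR adjusted p = 0.392) were lower too. In Irp2-/- against WT testes, G6pd2, a retrogene copy of G6pdx that may share reads with it, had -0.21 (edgeR adjusted p = 0.0957), Dpep1, a dipeptidase that cleaves cysteinylglycine, 0.29 (edgeR adjusted p = 0.498), and Alox15, a lipoxygenase, -0.71 (edgeR adjusted p = 0.516). Alox15 was low, with means of 0.545 CPM in Irp2-/- and 0.898 CPM in WT testes. Ggt5 was also low, with means of 1.26 CPM in Irp1-/-, 0.814 CPM in WT and 0.717 CPM in Irp2-/- testes.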

How the data were processed

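Whole-testis RNA was sequenced as stranded, paired-end mRNA libraries on the genome mm10. The table the authors deposited holds unnormalized whole-number counts of reads per gene, from the nf-core pipeline for RNA-seq. The counting tool and its strand setting are not given in the sources used here, so the whole numbers may be rounded estimates. Libraries were grouped by their labels. The test was that of edgeR 4.0.16 under R 4.3.3 (TMM, its filter on low counts, robust quasi-likelihood test, Benjamini-Hochberg adjustment over all genes tested, threshold 0.05), using the libraries of the genotypes compared. The script was tested on simulated data. Standard errors and 95% intervals were derived from the F statistic and the fold change. Subunit ratios used counts plus 0.5 and an exact permutation test over libraries. The members and lists were chosen with earlier results of these data known. Named genes were the 10 members, both targeted genes and list genes past the threshold in any comparison. Per list and comparison, up to 3 genes of largest change with an unadjusted p under 0.05 were named, and genes past the threshold counted among these 3. A list gene with such a p can thus go unnamed. List genes lower in Irp1-/- than in WT testes at an unadjusted p under 0.05 were named besides, as were NRF2 list genes with such a p between the knockouts. The alternatives tried were RLE size factors, other filters on counts, DESeq2 1.42.0 (the tool of the authors), all 11 libraries in one fit, a replicate block and leaving out each library. Selenop is listed under an older symbol, and low-count list genes (Mboat1, Ptgs2, Ggt6, Cbs, Gpx2, Gpx5) were not tested. Total counts of 15902473 to 22451417 set the precision, and counting error alone is far smaller for Gpx4 (0.7% in WT) than for Gss (11.4%).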

Additional observations from a re-analysis of the deposited data

Results flagged for a closer look

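Between the knockouts, levels differed for 7 list genes at an adjusted p under 0.05 (edgeR, Irp1-/- against Irp2-/- testes). The log2 fold changes were 1.02 for Gpx3 (adjusted p = 0.00024, higher in 4 of 4 Irp1-/- than in any Irp2-/- library), 0.47 for Ephx1 (adjusted p = 0.00045), 0.26 for Fth1 (adjusted p = 0.00499), 0.34 for Tkt (adjusted p = 0.00593), 0.47 for Scd1 (adjusted p = 0.00784), 0.41 for Gpx6 (adjusted p = 0.015) and 0.21 for Selenop (adjusted p = 0.0318). None of the 10 members was among them. Against WT testes, none of the 7 genes passed in either knockout (edgeR). Only the Gpx3 call held in all 13 alternative fits, and each of the other calls was lost in at least 1.

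Among the 4 WT libraries, WT 4 stood apart for Chac2, at 3.10 CPM against 2.59 to 2.63 CPM in the other WT libraries, a gap of 0.914 of the whole range. Of 66 groups of 4 libraries examined 1 stood out in this way, where chance gives about 3.3.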

How the results depend on the processing

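No member passed the threshold under RLE normalization, either other count filter, DESeq2, the fit of all 11 libraries or the loss of any 1 library, in any comparison. Deviations of same-numbered libraries correlated by -0.0091 to 0.0772, and those of other pairs across genotypes by -0.131 to 0.0862. No pairing by replicate number was seen, which does not exclude one. With the replicate number as a block, Irp1-/- against WT rests on numbers 1 and 2, the only ones both groups share. It called 439 genes in place of 164, and 1 member, Slc3a2 (log2 fold change 0.23, edgeR adjusted p = 0.00169). The sign turned there for Slc7a11 (0.35), Gss (-0.0095), Acsl4 (0.054), Dpep1 (-0.031) and G6pd2 (0.0068). With that block it turned in Irp2-/- against WT for Alox12 (0.00029), Tkt (0.011) and Selenop (0.035), and between the knockouts for Gss (0.026), Lpcat3 (0.0016) and Mboat2 (-0.013), and it ended the Gpx6 call (edgeR adjusted p = 0.0554). The block also ended the calls of the targeted gene Aco1, at -0.28 in Irp1-/- against WT (edgeR adjusted p = 0.314) and -0.26 between the knockouts (edgeR adjusted p = 0.368). Aco1 in Irp2-/- against WT, at 0.0012, was -0.0041 with RLE, -0.0011 with at least 10 counts in every library, -0.0047 in DESeq2 and -0.002 with all 11 libraries. No alternative moved the median of all genes outside -0.0048 to 0.0064.

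Without 1 library, genes called ranged from 55 to 216 in Irp1-/- against WT (55 without Irp1-/- 1, 84 without WT 2, 102 without Irp1-/- 6, 106 without WT 4), from 118 to 223 in Irp2-/- against WT (118 without Irp2-/- 2), and from 414 to 763 between the knockouts (414 without Irp2-/- 2, 471 without Irp1-/- 1). Fold changes of genes not past the threshold crossed 0. In Irp1-/- against WT the log2 ranges were -0.18 to 0.088 for Slc7a11, -0.0039 to 0.06 for Gclc, -0.072 to 0.016 for Gclm, -0.0036 to 0.15 for Gss, -0.11 to 0.05 for Acsl4, -0.0071 to 0.028 for Lpcat3, -0.022 to 0.091 for Nfe2l2, -0.055 to 0.018 for Ireb2, -0.27 to 0.003 for Alox15, -0.037 to 0.021 for G6pd2 and -0.0022 to 0.28 for Nqo1. In Irp2-/- against WT they were -0.13 to 0.0094 for Gpx4, -0.094 to 0.014 for Aifm2, -0.042 to 0.13 for Acsl4, -0.1 to 0.1 for Aco1, -0.091 to 0.17 for Scd1, -0.028 to 0.031 for Sqstm1, -0.14 to 0.066 for Tkt, -0.09 to 0.16 for Ephx1, -0.1 to 0.058 for Selenop and -0.003 to 0.2 for the ratio of Slc7a11 to Slc3a2. Between the knockouts they were -0.072 to 0.072 for Gpx4, -0.031 to 0.064 for Slc3a2, -0.091 to 0.0021 for Gclm, -0.13 to 0.049 for Gss, -0.14 to 0.0049 for Acsl4 and -0.023 to 0.0061 for Lpcat3. The causes of these changes were not tested. Counting error alone was 11.4% of the WT mean for Gss and 9.69% for Slc7a11, the members with the fewest counts.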
